A study of Mus musculus with 2 samples.

Results

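Fgf2, the gene for basic fibroblast growth factor, was followed inside the mesenchymal cells of primary preadipocyte cultures from the inguinal white (iWAT) and the interscapular brown fat (iBAT) of mice. It is 1 of 27995 genes listed in both libraries. Kept cells had over 200 but under 7500 genes and a mitochondrial share of UMIs below 30%, a UMI (unique molecular identifier) being the tag that marks a single captured mRNA. A kept cell was called mesenchymal where it had at least 1 UMI of Pdgfra, the PDGF receptor of adipose stromal progenitors, and 0 UMIs of Epcam (epithelium), Ptprc (leukocytes) and Pecam1 (endothelium). This gate held 15418 of 29744 kept iWAT cells and 24891 of 28215 kept iBAT cells.

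Stromal vascular cells of wild-type C57BL/6N mice aged 8 to 12 weeks were pooled within a depot, grown in high-glucose DMEM to 80% confluency and kept for 48 h as 4 cultures. Per the sample descriptions, the cultures of each depot were untreated or received FGF1, FGF2 or FGF8, the FGFs at 5.5 nM, were marked with sample tags, and were run together on a BD Rhapsody cartridge. The published methods name a vehicle, FGF1 and FGF2 only. The tag of each cell was not used here, so all values are over the pool of cultures, and what the added FGFs did to Fgf2 cannot be told apart from what the cells did without them. There was 1 library per depot, with no replicate, so no test was run, and depot cannot be told apart from library. The depots also differed in sex-linked transcripts, with Xist at 345 counts per 1000000 UMIs (CPM) in iWAT and 0.0505 in iBAT, and Ddx3y at 1.20 and 81.9. Median depth was 16204 UMIs per kept cell in iWAT and 27235 in iBAT, the libraries shared 8 cell numbers, and 1.31% and 3.19% of kept cells were called doublets. Intervals throughout are exact 95% intervals (Poisson for levels and ratios, Clopper-Pearson for shares) and cover counting error only, which is narrower than the spread between cultures or animals would be. Those of levels and ratios take each UMI as independent. As Fgf2 varied between cells beyond counting (below), they are too narrow also for the cells of a library. An interval that holds or excludes 1 is therefore no test, least of all where its end lies near 1.

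FGF2 has no classical signal peptide, leaves the cell by an unconventional route and is held at the surface and in the matrix by heparan sulfate. With heparan sulfate as co-receptor it binds FGF receptors, of which Fgfr1 is the main one of adipose stromal cells, and drives the ERK cascade, whose feedback genes (Spry, Spred, Dusp) damp the signal again. Adipose stroma holds cells of several states. Dpp4 marks interstitial progenitors, Icam1 and Cxcl14 mark committed preadipocytes, and Pparg, Cebpa, Fabp4 and Lpl accompany adipogenic differentiation.

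In GRCm39, Fgf2 (ENSMUSG00000037225) lies on the plus strand at chr3:37402473-37464257. Its neighbour Nudt6, on the minus strand at chr3:37458547-37474360, shares 3073 of the 6837 exonic bases of Fgf2 (44.9%, all isoforms combined) but only 58 of its last 500, the end nearest to where this chemistry primes. Nudt6 itself was low, with a UMI in 5.09% of thinned iWAT cells and 4.79% of thinned iBAT cells. Whether counting used strand is not given in the sources used here. Fgf2os, an antisense transcript across the 5′ end of the gene, shares no exonic base with Fgf2 in this annotation, and the plus-strand lncRNA Gm43439 shares 255.

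The gate was checked against marker lists. Of 10 mesenchymal markers, 8 were at or above 50 CPM in each library. Pdgfra is 1 of these 8, and its presence was fixed by the gate. Below 50 CPM were Lum, at 14.9 in iWAT and 4.40 in iBAT, and Cd34, at 2.42 and 27.2. Levels of these markers outside the gate were not compared. Of the lists for other cell types, summed levels were between 5.70 and 69.2 CPM in iWAT (Schwann lowest, mural highest) and between 0.362 and 76.2 in iBAT (epithelial lowest, mural highest), and no gene of these lists reached 50 CPM. Epcam, Ptprc and Pecam1 were at 0 because the gate requires it, and Krt18, Krt5 and Krt14 in iBAT and Myod1 and Myf5 in iWAT were also at 0. Within the gate, the Fgf2 level in the highest over the lowest bin of such marker UMIs was taken over bins with at least 200 cells. This ratio was between 0.957 (epithelial) and 1.10 (skeletal muscle) in iWAT and between 0.718 (mural) and 1.28 (endothelial) in iBAT. Of the 43.6 CPM of the iBAT endothelial list, 34.9 were Eng. Fgf2 in iBAT cells with an Eng UMI over cells without was 1.18, while for Cdh5, Kdr and Egfl7 the interval held 1. Of the mural list, Abcc9 had 1.08 (1.04 to 1.13) in iBAT, whereas Cspg4, Mcam, Notch3 and Rgs5 lay below 1. The mesenchymal markers themselves were mixed. Of the 8 tested between cells with 3 or more and with 0 Fgf2 UMIs at fixed depth, 2 were higher and 5 lower with Fgf2 in both libraries, against 37.2% and 29.8% of all genes tested. Their sum over cells with 0 to 6 or more Fgf2 UMIs went from 34152 to 26674 CPM in iWAT and from 16987 to 10975 in iBAT, and most of it was collagen I, with Col1a1 and Col1a2 at 18016 and 8258 CPM in iWAT and 6735 and 4074 in iBAT. Fgf2 in the highest over the lowest quartile of cells by that sum was 0.699 (0.679 to 0.720) in iWAT and 0.568 (0.552 to 0.585) in iBAT. By UMIs of the gating gene Pdgfra the highest over the lowest bin was instead 1.06 (0.988 to 1.14) in iWAT, for 6 to 10 over 0 UMIs. In iBAT it was 1.47 (1.38 to 1.57), for 11 or more over 0. The sum of the skeletal muscle list was 108, 26.5, 16.4 and 15.8 CPM in iBAT and 9.13, 9.60, 12.2 and 14.3 in iWAT in cells with 0, 1 to 2, 3 to 5, and 6 or more Fgf2 UMIs at fixed depth. The 86 iBAT cells with 11 or more muscle UMIs had Fgf2 at 36.0 CPM (24.5 to 51.2), a bin too small for the ratio. In contrast, iBAT cells with 0, 1 to 2, 3 to 5, and 6 to 10 had 181, 213, 227 and 214 (1.18 for 1 to 2 over 0, 1.14 to 1.21). The genes of the list were mixed. In iBAT, Fgf2 in cells with a UMI over cells without was 1.21 for Chrna1 and 0.961 (0.899 to 1.03) for Actc1. For Myog and Des it was 0.729 and 0.686. Whether cells with few UMIs of the list were muscle cells was not determined. Without the 220 iBAT cells with over 2 muscle UMIs, the iBAT ratios by Dpp4, adipogenic, committed preadipocyte and G2/M UMIs given below stayed within their intervals, and all 6 genes higher and all 3 lower in both libraries were found again. The part of the mesenchymal and other marker lists in the results was not tested.

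Fgf2 was measured at 293 CPM in the iWAT gate (291 to 295, from 84284 UMIs) and at 191 in the iBAT gate (190 to 192, from 135684 UMIs). The iWAT level was 1.53 times that of iBAT (1.52 to 1.55). To compare cells of unequal depth, UMIs were drawn at random until every cell had 10000 (called thinned below), which left out 1567 shallower iWAT cells and no iBAT cell. At that depth an Fgf2 UMI was found in 83.0% of 13851 cells in iWAT (82.4% to 83.6%) and in 65.4% of 24891 in iBAT (64.8% to 66.0%), against 89.8% and 84.7% before thinning. Fgf2 was also counted in cells gated on leukocyte, epithelial or endothelial markers, and its source there was not tested. Among thinned cells with 2 or more Ptprc UMIs and none of Pdgfra, Epcam or Pecam1, 11.4% of 44 iWAT cells and 5.50% of 109 iBAT cells had an Fgf2 UMI. Median depths before thinning were 11376 UMIs over all 71 such iWAT cells, 27 of which were too shallow to be thinned, and 21000 in iBAT. Gated in the same way on Epcam in iWAT and on Pecam1 in iBAT, 23.3% of 2179 and 17.2% of 122 cells had one, at median depths of 10851.5 (before shallow cells were left out) and 19709. The mesenchymal shares stood above all 4 of these shares. Kept cells with none of the 4 gating genes, whose identity was not determined, had 244 CPM in iWAT and 121 in iBAT.

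Cells of the same gate differed widely in Fgf2. At fixed depth the mean was 2.83 Fgf2 UMIs per cell in iWAT and 1.83 in iBAT, and the variance was 2.62 and 3.21 times the mean, where counting alone would give equal values. Cells with 0 Fgf2 UMIs made up 17.0% of iWAT and 34.6% of iBAT cells, against 5.89% and 15.98% for a Poisson distribution of the same mean. At the other end, the tenth of cells with most Fgf2 held 31.5% of the Fgf2 UMIs in iWAT and 40.7% in iBAT, and the highest cells had 27 and 32 UMIs out of 10000. Ranked by excess squared coefficient of variation, Fgf2 stood at 340 of 3415 genes in iWAT and 157 of 3491 in iBAT.

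**Figure D1:**
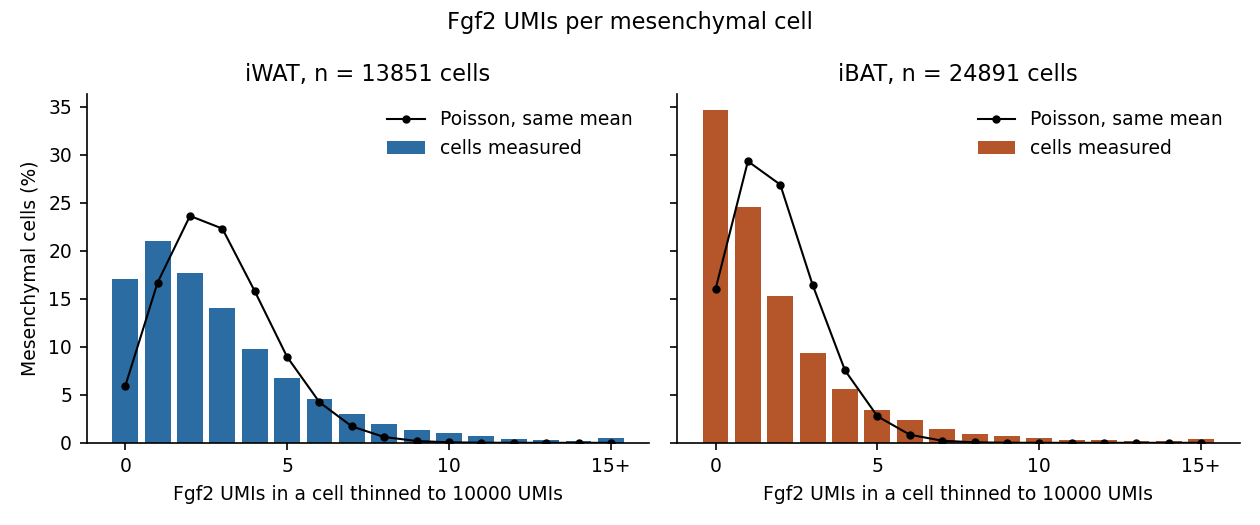
Share of mesenchymal cells (vertical axis, %) by number of Fgf2 UMIs in a cell thinned to 10000 UMIs (horizontal axis, the last bar being 15 or more), with a Poisson distribution of the same mean as points joined by a line. Cells with 0 UMIs are more frequent than the Poisson line gives, at 17.0% in iWAT and 34.6% in iBAT, and the right tail is longer.

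The Fgf2 level also differed with the total UMIs of a cell, before thinning. Over the 4 quartiles of total UMIs it was 241, 260, 296 and 328 CPM in iWAT and 147, 177, 199 and 213 in iBAT. Deeper cells thus gave a higher Fgf2 share of their own UMIs in both libraries. Median total UMIs went from 17747 in iWAT cells with 0 thinned Fgf2 UMIs to 20323 in those with 6 or more, and from 26577 to 30432 in iBAT. Cell size and capture were not measured separately, and their part in the results below was not tested, but the ratios by Dpp4, adipogenic and G2/M UMIs and the counts of genes are also given for the middle quartiles of depth with the other processing settings.

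Dpp4, the surface peptidase of interstitial progenitors, was compared first. In iWAT the Fgf2 level was 278 CPM (275 to 281) in 11384 cells with 0 Dpp4 UMIs, 304 (296 to 311) in 2279 cells with 1 or 2, and 334 (308 to 361) in 182 cells with 3 to 5. In iBAT it was 182 (180 to 184) in 24464 cells with 0 Dpp4 UMIs and 254 (239 to 270) in 414 cells with 1 or 2. The ratio of the highest to the lowest bin with at least 200 cells was 1.09 in iWAT (1.06 to 1.12) and 1.40 in iBAT (1.31 to 1.48). Fgf2 was therefore higher in Dpp4-positive cells of both cultures, by a modest amount in iWAT. Other progenitor genes were mixed. Cells with a UMI of Cd55, a complement regulator, had 333 CPM Fgf2 against 277 without in iWAT and 223 against 180 in iBAT, and cells with a UMI of Wnt2, a WNT ligand, had 316 against 281 and 253 against 181. Sema3c, a secreted semaphorin, went with higher Fgf2 in iWAT (1.12) but with lower Fgf2 in iBAT, at 174 against 184 CPM (0.944, 0.915 to 0.974). For Anxa3, an annexin, the interval of the iWAT ratio held 1 (1.02, 0.979 to 1.06), and the iBAT ratio was 1.12. Dpp4 UMIs were sparse, in 17.8% of iWAT and 1.72% of iBAT cells at this depth.

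By summed UMIs of the adipogenic list the Fgf2 ratio differed between the libraries, a difference that was not tested. In iBAT the Fgf2 level was 146, 163, 192, 208 and 247 CPM in cells with 0, 1 to 2, 3 to 5, 6 to 10, and 11 or more adipogenic UMIs, a ratio of 1.69 (1.64 to 1.75). In iWAT the same bins gave 289, 282, 290, 271 and 262, a ratio of 0.907 (0.859 to 0.957). The iWAT levels lay close together, and among iWAT cells with 0 G2/M UMIs the ratio was 1.02 (0.925 to 1.12), so that no direction is drawn for iWAT. The list sum was carried by few genes. Fabp4, a fatty acid carrier, and Lpl, lipoprotein lipase, stood at 45.4 and 253 CPM in the iWAT gate and at 107 and 354 in the iBAT gate. In iBAT, Fgf2 was 219 CPM in cells with a Fabp4 UMI and 163 in those without, 209 against 169 for Cebpa and 201 against 179 for Pparg, both transcription factors of adipogenesis. In iWAT these 2 factors went the same way by less, with 303 against 281 for Cebpa (1.08, 1.04 to 1.11) and 296 against 282 for Pparg (1.05, 1.01 to 1.09). For Fabp4 the iWAT interval held 1 (0.991, 0.969 to 1.01). Lpl had 0.954 (0.933 to 0.976) in iWAT and 1.22 in iBAT. The adipocyte genes of the list were low. Adipoq, the gene for adiponectin, was at 2.95 CPM in iBAT cells with 3 or more thinned Fgf2 UMIs (called Fgf2-high) and 5.07 in cells with 0 (called Fgf2-zero), a ratio of 0.58 (0.49 to 0.69). Car3, an adipocyte carbonic anhydrase, was at 0.16 and 2.19 CPM, a ratio of 0.07 (0.03 to 0.13), from few UMIs, and Cfd, adipsin, had 0.65 (0.49 to 0.86). Others did not go that way, with ratios of 1.26 (0.986 to 1.60) for Plin4, a lipid droplet coat protein, and 0.986 (0.864 to 1.12) for Cd36, a fatty acid transporter. By the presence of their own UMIs, Fgf2 was 1.27 times as high in iBAT cells with Plin4 (1.18 to 1.36) and 1.15 times in those with Cd36 (1.08 to 1.23).

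**Figure D2:**
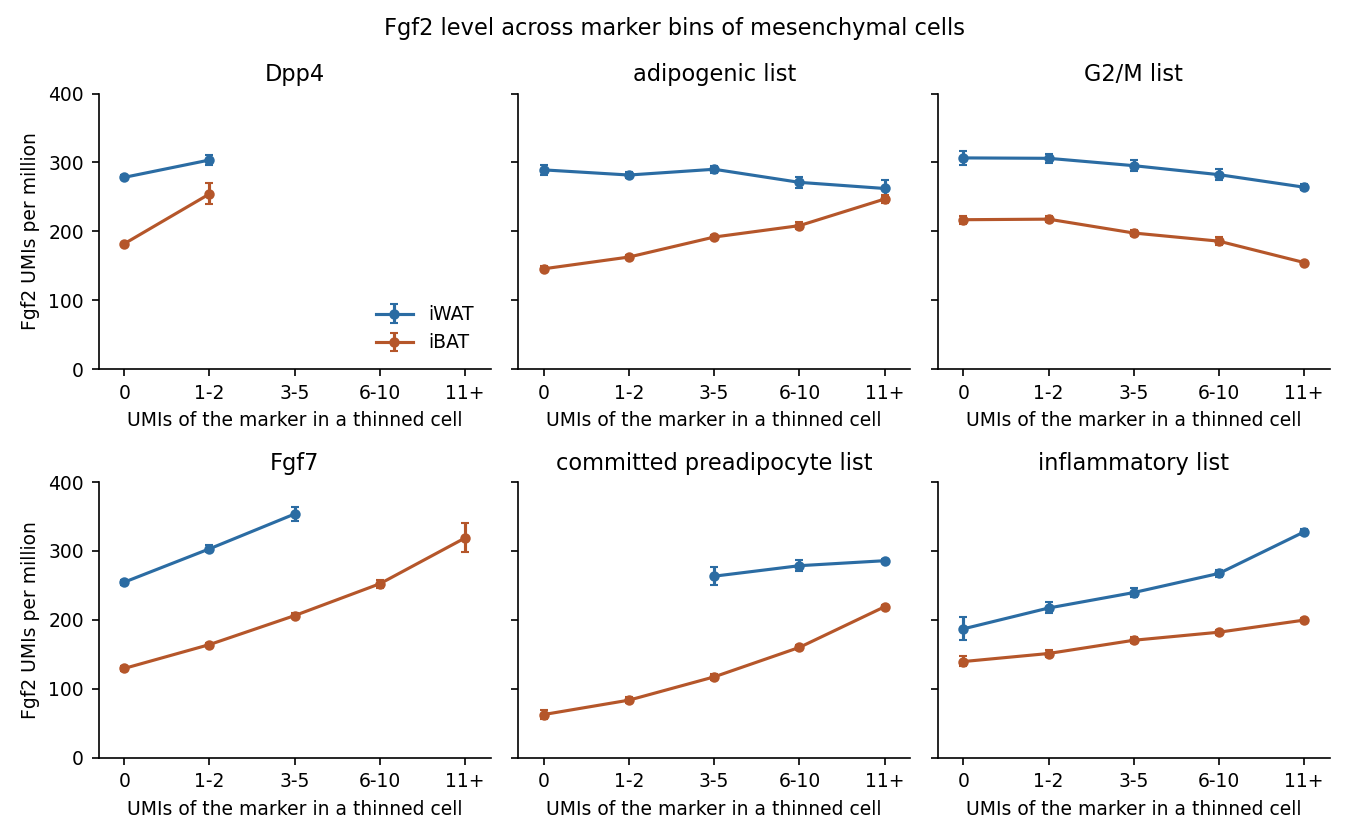
Fgf2 level (vertical axis, CPM) in mesenchymal cells binned by the UMIs of a marker or list in a thinned cell (horizontal axis), with 95% counting intervals as bars; bins with fewer than 200 cells are left out. With adipogenic UMIs the iBAT level goes from 146 to 247 while the iWAT level stays between 262 and 290, and with G2/M UMIs both libraries are lower in the last bin.

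The committed preadipocyte list (Icam1, Ggt5, Col15a1, Cxcl14, Sparcl1, Apoe, Col4a1 and Col4a2) gave the largest ratio of highest to lowest bin in iBAT. Fgf2 there was 62.8, 83.7, 117, 160 and 219 CPM over the 5 bins, a ratio of 3.49 (3.17 to 3.85). In iWAT few cells fell in the lowest bins, and from 3 to 5 UMIs upward the level was 263, 279 and 286, a ratio of 1.09 (1.03 to 1.14). Over those same 3 bins iBAT went from 117 to 219. Among its genes in iBAT, Fgf2 in cells with a UMI over cells without was highest for chains of basement membrane collagen IV. It was 2.21 for Col4a1 and 1.85 for Col4a2, against 1.34 for Icam1, 1.32 for Apoe and 1.30 for Cxcl14. Col15a1 had 1.15, Sparcl1 1.09 and Ggt5 0.947 (0.901 to 0.995). In iWAT the genes were mixed, with 1.10 for Col4a2, 1.03 for Cxcl14 and 0.890 (0.872 to 0.908) for Col15a1. The part of single genes in the list ratio was not tested. Cxcl14, a secreted chemokine, was in iBAT at 226, 333, 480 and 678 CPM in cells with 0, 1 to 2, 3 to 5, and 6 or more Fgf2 UMIs, and in iWAT at 1044, 1033, 1127 and 1098. The adhesion molecule gene Icam1 was at 19.2 CPM in Fgf2-zero and 34.2 in Fgf2-high iBAT cells, and at 29.9 and 29.4 in iWAT, where cells with an Icam1 UMI had 308 CPM Fgf2 and those without 277 (1.11, 1.09 to 1.14).

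Cells with more mitotic transcripts had less Fgf2 in both libraries. With 0 summed UMIs of the G2/M list the Fgf2 level was 307 CPM in iWAT (297 to 316) and 217 in iBAT (211 to 223), and with 11 or more it was 264 (260 to 268) and 155 (153 to 157). The ratios were 0.861 (0.831 to 0.893) and 0.714 (0.692 to 0.736). Of the 10 G2/M genes at 50 or more CPM in both libraries, all 10 were lower in Fgf2-high than in Fgf2-zero cells of both, with medians of -0.11 (iWAT) and -0.35 (iBAT) on the log2 scale, against medians over all 3115 genes of 0.03 and -0.01 and 29.8% of all genes lower in both. None of the 10 reached 1.5-fold. Top2a, the topoisomerase of dividing cells, was at 160 CPM in Fgf2-high and 196 in Fgf2-zero iWAT cells, and at 179 and 233 in iBAT. For the G1/S list, which marks DNA replication, the ratios of Fgf2 were nearer to 1, at 0.920 (0.878 to 0.965) in iWAT and 0.888 (0.849 to 0.931) in iBAT. Of its 5 genes tested, 2 were higher and 1 was lower with Fgf2 in both libraries, against 37.2% and 29.8% of all genes. Rrm2, a subunit of ribonucleotide reductase, was 1.13 and 1.17 times as high in Fgf2-high as in Fgf2-zero cells, but cells with an Rrm2 UMI had slightly less Fgf2 than cells without, 0.959 times (0.940 to 0.978) in iWAT and 0.942 times (0.925 to 0.960) in iBAT, so that no direction is drawn for it.

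The states were then crossed. Among iBAT cells with 0 Dpp4 UMIs, the Fgf2 level was 255 CPM (249 to 261) with 6 or more adipogenic and 0 to 2 G2/M UMIs, and 136 (133 to 139) with 0 to 2 adipogenic and 11 or more G2/M UMIs. In the mixed strata it was 182 (few of either) and 188 (many of both). In iWAT cells with 0 Dpp4 UMIs the same 4 strata gave 274, 259, 307 and 240 CPM in that order. With 1 or more Dpp4 UMIs they gave 294, 288, 316 and 278 in iWAT and 282, 193, 210 and 195 in iBAT, from 42 to 87 cells each there. Each level was above that with 0 Dpp4 UMIs, but some intervals overlapped, as in iBAT cells with many of both (155 to 242 against 182 to 194). The part of the other states in the Dpp4 ratio was not tested. Bins of Dpp4, adipogenic and G2/M UMIs combined held 1.19% of the variance of Fgf2 beyond counting in iWAT and 4.11% in iBAT. Nearly all of that variance lay inside these bins. Bins of sparse UMIs sort cells by state only in part, as Dpp4 was found in 1.72% of iBAT cells. The shares are therefore those of the bins, not of the states. Other lists were not in this split, among them the inflammatory list, with a ratio of 1.75 (1.61 to 1.91) in iWAT and 1.43 in iBAT.

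Genes that went with Fgf2 at fixed depth were found by setting cells with 3 or more Fgf2 UMIs (6141 in iWAT, 6371 in iBAT) against cells with 0 (2355 and 8618), over 3115 genes at 50 or more CPM in both libraries, Fgf2 left out. In iWAT 13 genes were at least 1.5-fold higher (0.417% of those tested) and in iBAT 37 (1.19%), with 6 in both (0.193%), which is 46.2% of the iWAT list and 16.2% of the iBAT list. At least 1.5-fold lower were 5 genes in iWAT (0.161%), 14 in iBAT (0.449%) and 3 in both (0.0963%). By direction alone, 37.2% of the genes tested were higher in both libraries and 29.8% lower in both. Most genes thus differed little, and 90% of the log2 ratios lay between -0.15 and 0.23 in iWAT and between -0.22 and 0.28 in iBAT.

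The 6 genes higher in both were Cck, Tmem59l, Igfbp5, Pi15, Chst11 and Ptgs2. Cck, the gene for the peptide hormone cholecystokinin, had the highest ratio in iWAT, and Tmem59l in iBAT. Over cells with 0, 1 to 2, 3 to 5, and 6 or more Fgf2 UMIs it was at 217, 277, 390 and 481 CPM in iWAT and at 243, 366, 496 and 617 in iBAT. Its level was 1.93 times as high in Fgf2-high as in Fgf2-zero iWAT cells (1.87 to 1.99) and 2.18 times in iBAT (2.14 to 2.22). Tmem59l, a transmembrane protein gene, was at 58.6 and 95.8 CPM in Fgf2-zero and Fgf2-high iWAT cells and at 38.5 and 102 in iBAT, ratios of 1.63 and 2.64. Igfbp5, which binds insulin-like growth factors, had ratios of 1.56 and 2.30, with most of the difference in the cells with 6 or more Fgf2 UMIs. Ptgs2, the inducible cyclooxygenase of prostaglandin synthesis, was at 362, 456, 534 and 667 CPM over the bins in iWAT and at 73.5, 84.7, 105 and 132 in iBAT. Pi15, a secreted peptidase inhibitor, had ratios of 1.55 and 1.73, and Chst11, which sulfates chondroitin chains, 1.55 and 1.80.

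A further 9 genes complete the 15 with the highest ratio in the lesser of the 2 libraries, and each lay under 1.5-fold in at least 1 of them. They were Mmd, Ggct, Fgf7, Ass1, Csf1, Gpr39, Prkg2, Cryab and Serpine2. Fgf7, the keratinocyte growth factor, is a further FGF ligand in the list. It was at 74.0, 84.9, 99.5 and 121 CPM over the Fgf2 bins in iWAT and at 224, 277, 323 and 374 in iBAT. Csf1, the macrophage growth factor, was abundant, at 1220, 1414, 1668 and 2055 CPM in iWAT and 1871, 2220, 2594 and 2849 in iBAT. Ass1, an enzyme of arginine synthesis, was 1.43 times as high in iWAT and 1.72 times in iBAT. Serpine2, an inhibitor of thrombin and urokinase, was 1.38 and 1.71 times as high. The order over the 4 Fgf2 bins was upward for all 15 genes in both libraries. These bins hold the cells by which the genes were chosen, so the order is no separate evidence.

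**Figure D3:**
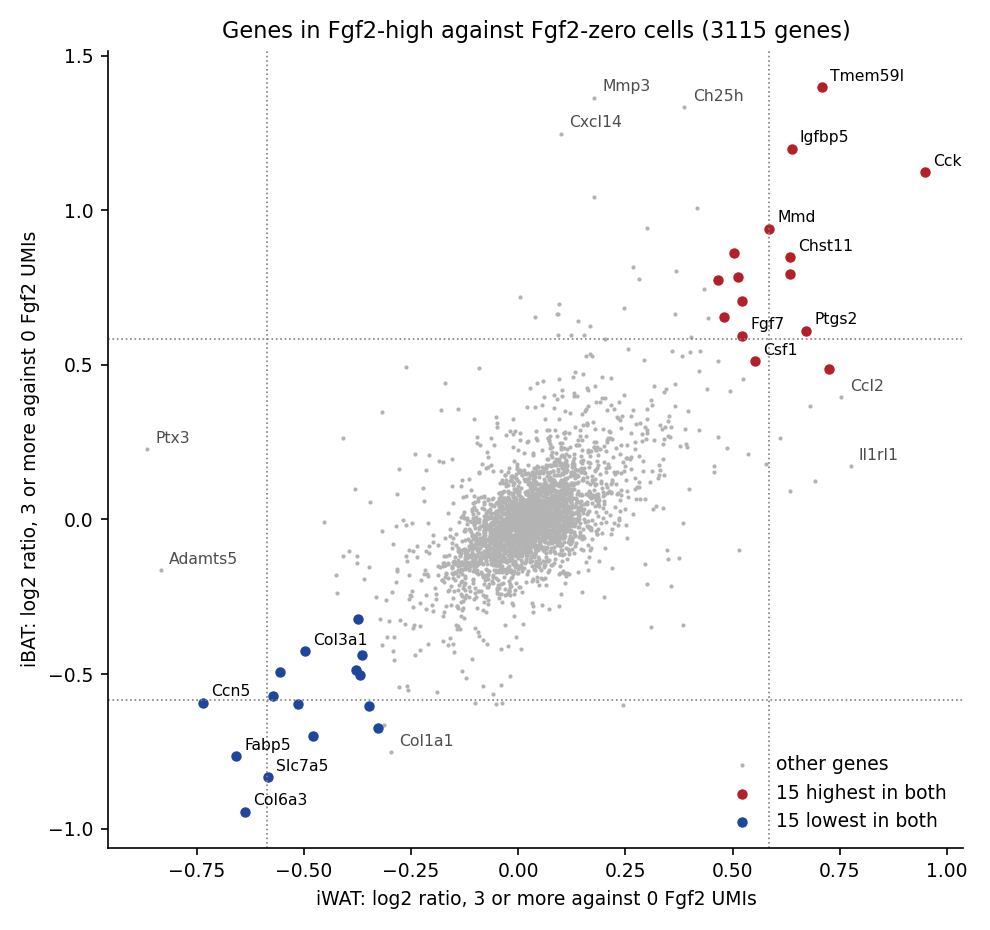
Each point is a gene, placed by the log2 ratio of its level in cells with 3 or more against 0 Fgf2 UMIs in iWAT (horizontal axis) and iBAT (vertical axis), with dotted lines at 1.5-fold. Cck, Tmem59l and Igfbp5 lie farthest up and right, and Col6a3, Fabp5, Ccn5 and Slc7a5 lie down and left.

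Over single cells, the genes most like Fgf2 by Pearson's r of log(thinned UMIs + 1), taking the lower of the libraries, were Csf1 (0.24 in 13851 iWAT cells, 0.22 in 24891 iBAT cells), Chst11, Ftl1, Cryab, S100a6, Pdpn, Pi15, Mmd, Mtpn and Pmepa1. Chst11 had r of 0.22 and 0.16. These are descriptions over cells that share a library and a fixed depth, and they were weak. In iBAT alone Timp1, an inhibitor of matrix metalloproteinases, had r of 0.31, with 2206, 2891, 3639 and 4503 CPM over the Fgf2 bins, against r of 0.11 in iWAT.

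The promoters of these genes were read from RefSeq and searched for 1 motif. The letters TGACG, the core of a cyclic AMP response element, were searched on both strands in the 250 bases before each RefSeq gene start, a motif chosen after the genes were known. Of the 15 genes, 12 had an entry, and 4 of them held the motif (33.3%), against 19.8% of 27025 genes and against 2 of 12 (16.7%) of the 15 genes lowest with Fgf2 described next. The other 8 genes, among them Igfbp5, Chst11, Ptgs2 and Csf1, had no match, so the letters were not shared by most of the group. Fgf2 held the motif at 2 places. The matches are shown 5′ to 3′ on the gene's strand with up to 10 bases on each side, the motif in capitals, at the GRCm39 positions where the RefSeq sequence (a GRCm38 table) was matched exactly and uniquely. They are a description of letters, not of binding. The gene starts are those of RefSeq, and in the GENCODE annotation, whose start for Fgf2 is given above, all of the printed stretches but that of Ggct lie inside the span of their gene.
Fgf2, chr3:37402652-37402676: ttaggagctgCGTCAccgcagtctc
Fgf2, chr3:37402786-37402801: ggacgcggggTGACGc
Cck, chr9:121324793-121324817: tgctggactgCGTCAgcactgggta
Tmem59l, chr8:70940003-70940030: cctcgctcagTGACGTCAacacccggtc
Mmd, chr11:90140180-90140204: ctgggcgcggTGACGcgcaggtggc
Ggct, chr6:54970008-54970032: agaaaagcgaCGTCAgtgggcggga
In Tmem59l, 2 matches on opposite strands overlap.

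Lower with Fgf2 by 1.5-fold or more in both libraries were Fabp5, Col6a3 and Ccn5. Fabp5, an intracellular fatty acid carrier, was at 219, 182, 149 and 118 CPM over the Fgf2 bins in iWAT and at 248, 205, 160 and 112 in iBAT, ratios of 0.63 and 0.59. Col6a3, a chain of collagen VI, was at 184, 159, 127 and 97.9 CPM in iWAT and 253, 192, 140 and 109 in iBAT. The other chains went with it, Col6a1 with ratios of 0.68 and 0.71 and Col6a2 with 0.67 in both. Ccn5, a matricellular protein gene, had ratios of 0.60 and 0.66. Next came Slc7a5, which carries large neutral amino acids into the cell, at 115, 103, 82.7 and 63.0 CPM in iWAT and 95.9, 75.4, 59.3 and 40.0 in iBAT.

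The 15 lowest also held genes that did not reach 1.5-fold in both libraries. Asns, asparagine synthetase, had ratios of 0.70 in iWAT and 0.66 in iBAT. Pck2, the mitochondrial phosphoenolpyruvate carboxykinase, had 0.72 and 0.62. Mthfd2 and Shmt2, mitochondrial enzymes of the folate cycle, had 0.77 and 0.71, and 0.78 and 0.74. The remaining genes were Col3a1, the LIM domain genes Csrp1 and Fhl1, Filip1l and 2410006H16Rik. Of the 15 lowest, 14 were ordered downward over the 4 Fgf2 bins in each library, again in the cells by which they were chosen.

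**Figure D4:**
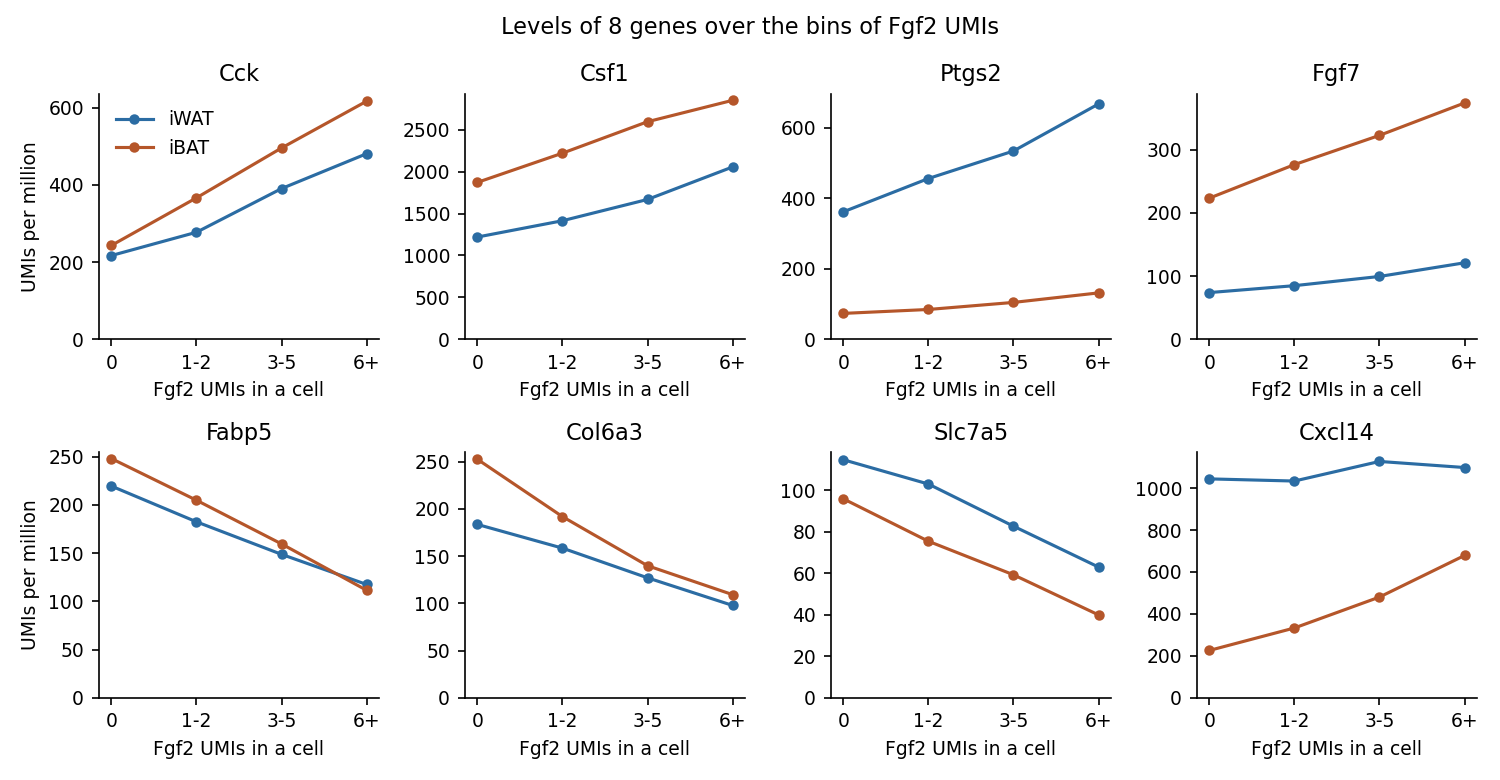
Level of 8 genes (vertical axes, CPM) in mesenchymal cells with 0, 1 to 2, 3 to 5, and 6 or more Fgf2 UMIs (horizontal axes). Cck, Csf1, Ptgs2 and Fgf7 are higher and Fabp5, Col6a3 and Slc7a5 lower with more Fgf2 in both libraries, while Cxcl14 goes from 226 to 678 in iBAT and stays between 1033 and 1127 in iWAT.

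The 30 genes kept their direction in the states examined. In cells with 0 to 2 G2/M UMIs, with 11 or more, with 0 to 2 adipogenic UMIs, with 6 or more, and with 0 Dpp4 UMIs, all 15 of the highest stayed above a ratio of 1 and all 15 of the lowest stayed below it, in both libraries. Cck, for example, had log2 ratios of 0.78 and 0.98 in iWAT cells with 0 to 2 and with 11 or more G2/M UMIs, and of 1.56 and 0.91 in iBAT. The genes were chosen on all these cells, so the subsets are no separate evidence.

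Other genes passed 1.5-fold in a single library. In iWAT, Ccl2, a monocyte chemokine, was at 253 CPM in Fgf2-zero and 427 in Fgf2-high cells (ratio 1.69), and 1.32 in iBAT. Il1rl1, the IL-33 receptor, had a ratio of 1.71 in iWAT and 1.13 in iBAT. Grem1, a BMP antagonist, had 1.62 and 1.09, and Hmga2, a chromatin protein of growing mesenchyme, 1.55 and 1.07. Ptx3, a soluble pattern recognition protein, was 0.55 in iWAT and 1.17 in iBAT. In iBAT, Mmp3, a matrix metalloproteinase, was at 197, 338, 483 and 564 CPM over the Fgf2 bins (ratio 2.57) while iWAT stayed between 547 and 673 (ratio 1.13). Ch25h, cholesterol 25-hydroxylase, had a ratio of 2.52 in iBAT and 1.31 in iWAT, and Spp1, osteopontin, 2.01 and 1.33. The difference of these ratios between libraries was not tested.

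The FGF pathway itself was then followed. Fgfr1 had a UMI in 91.3% of Fgf2-positive and 89.5% of Fgf2-zero iWAT cells, and in 89.7% and 87.1% of iBAT cells, so ligand and receptor transcripts were found in the same cells, 75.8% of iWAT and 58.7% of iBAT cells having both. Fgf2 was 244 CPM in iWAT cells with 0 Fgfr1 UMIs and 333 in those with 6 to 10, a ratio of 1.36 (1.30 to 1.43), and 145 and 227 in iBAT, 1.57 (1.505 to 1.63). Fgfr2, which is the receptor of FGF7 in its epithelial splice form, was at 39.3 CPM in Fgf2-high and 39.8 in Fgf2-zero iWAT cells, and 42.1 and 44.9 in iBAT.

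Of the 18 FGF ligands listed, only Fgf7 passed the minimum of 50 CPM for the comparison across genes, and the others are given as levels. Fgf7, Fgf10 and Fgf18 were higher with Fgf2 in both libraries. With 0 Fgf7 UMIs the Fgf2 level was 255 CPM in iWAT and 130 in iBAT. With 3 to 5 it was 354 and 206, and iBAT cells with 11 or more Fgf7 UMIs had 319. Fgf10, a ligand of the same subfamily, was at 9.98 CPM in Fgf2-zero and 15.4 in Fgf2-high iWAT cells (1.55, 1.34 to 1.79), and at 53.1 and 109 in iBAT (2.06, 1.99 to 2.14). Fgf18 had ratios of 1.41 and 1.63. Fgf1 was at 2.53 and 6.67 CPM in iBAT (2.64, 2.23 to 3.12) and at 2.17 and 2.91 in iWAT (1.35, 0.98 to 1.88). Fgf21, the endocrine member, was lower with Fgf2, at 15.97 and 9.87 CPM in iWAT (0.62, 0.54 to 0.70), and was under 1 CPM in iBAT. For Fgf13, Fgf14 and Fgf20, all under 5 CPM, the interval of the ratio of Fgf2-high to Fgf2-zero cells held 1 in each library, although Fgf2 was 1.07 times as high (1.004 to 1.14) in iBAT cells with an Fgf14 UMI as in those without.

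Of the 9 ERK feedback genes tested, 6 were higher and 2 lower with Fgf2 in both libraries, with medians of 0.23 and 0.25 on the log2 scale, against 37.2% and 29.8% of all genes tested. Of the 9, 1 passed 1.5-fold, Spred2 in iBAT, where 1.19% of all genes did. The summed level of the list, over the Fgf2 bins, was 1783, 1744, 1669 and 1652 CPM in iWAT and 1297, 1396, 1498 and 1534 in iBAT, so the sum was lower with Fgf2 in iWAT although most genes tested were higher. Binned by the list sum, Fgf2 in the highest over the lowest quartile of cells was 0.871 (0.847 to 0.896) in iWAT and 1.35 (1.32 to 1.39) in iBAT. Spred2, a membrane inhibitor of the RAS to ERK step, was at 51.6 CPM in Fgf2-zero and 68.1 in Fgf2-high iWAT cells (1.32, 1.24 to 1.41) and at 64.9 and 97.7 in iBAT (1.51, 1.45 to 1.56). Dusp5, a nuclear ERK phosphatase, had ratios of 1.40 and 1.17. Under the minimum of 50 CPM, Spry4 had 1.25 and 1.64 and Dusp4 1.35 and 1.46. Others of the list did not go that way. In iWAT, Fgf2 in cells with a UMI over cells without was 0.890 (0.872 to 0.909) for Spry1, 0.927 for Myc and 0.957 for Ier3. The same ratios were 1.01, 0.981 and 1.10 in iBAT. Egr1, an immediate early gene of the list, was lower in iWAT, at 846 and 618 CPM (0.73, 0.72 to 0.74), and nearly equal in iBAT, at 331 and 329. Fos was likewise at 472 and 359 CPM in iWAT and at 122 and 114 in iBAT. By the presence of their own UMIs, Fgf2 in iBAT was 1.16 times as high (1.13 to 1.18) in cells with Egr1 and 1.02 times (1.002 to 1.04) in cells with Fos, against 0.908 and 0.918 in iWAT, so that no direction is drawn for them in iBAT.

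**Figure D5:**
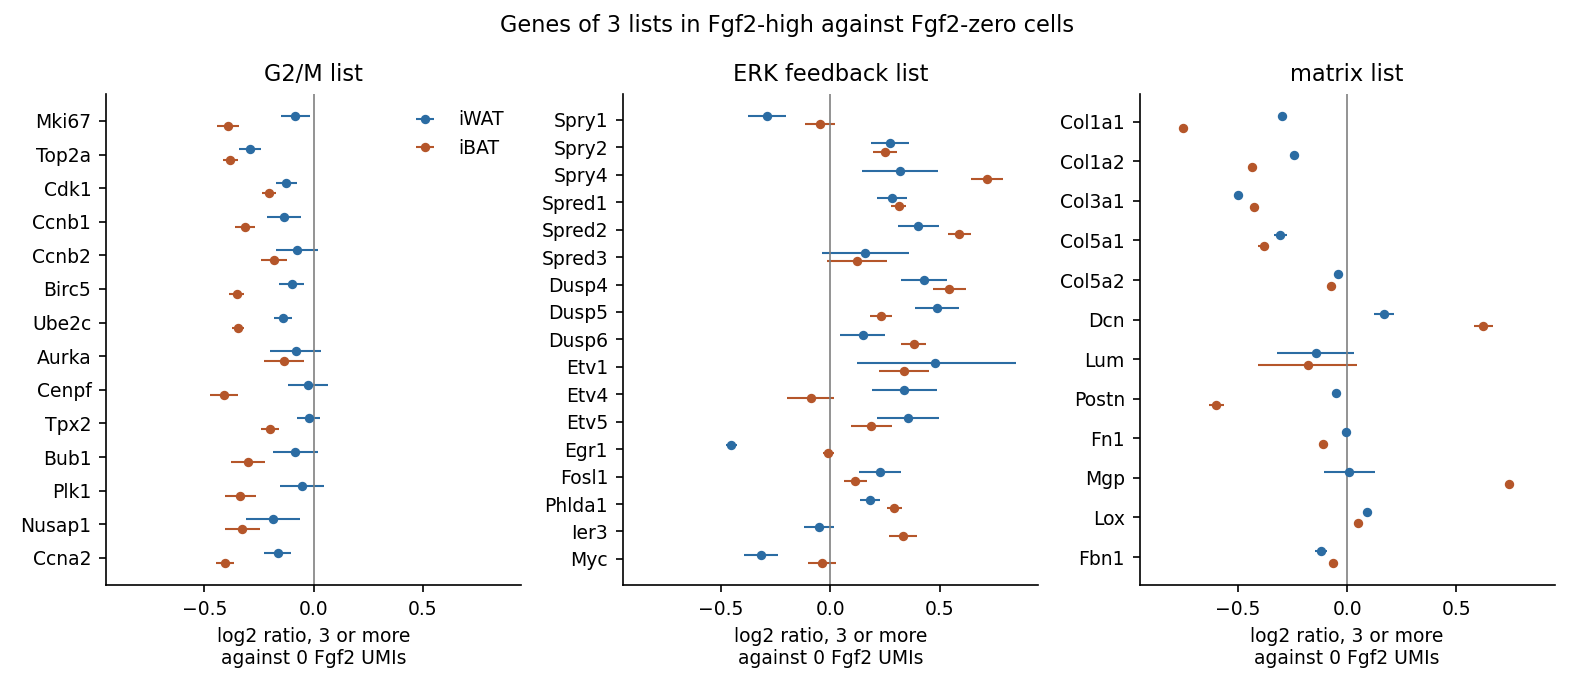
Log2 ratio of each gene of the G2/M, ERK feedback and matrix lists in cells with 3 or more against 0 Fgf2 UMIs (horizontal axes), with 95% counting intervals as bars. The G2/M genes lie left of 0, most ERK feedback genes right of it with Spry1, Egr1 and Myc left in iWAT, and in the matrix list Dcn lies right of 0 and the fibrillar collagens left in both libraries.

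Genes of the heparan sulfate list, through which FGF2 is held and released, were mixed, with 7 of 15 tested higher and 3 lower in both libraries and medians of 0.03 and 0.06, against 37.2% and 29.8% of all genes. The list's sum was higher with Fgf2, from 2812 to 2924 CPM over the Fgf2 bins in iWAT and from 3556 to 3966 in iBAT. Fgf2 in the highest over the lowest quartile of cells by that sum was 1.15 (1.12 to 1.18) in iWAT and 1.52 (1.48 to 1.56) in iBAT. Sdc4, a cell surface proteoglycan, was at 268 and 431 CPM in Fgf2-zero and Fgf2-high iBAT cells (1.60) and at 105 and 124 in iWAT (1.19). Sulf1, which removes sulfate groups from heparan sulfate, had ratios of 1.15 in iWAT and 1.499 in iBAT. S100a10, the partner of annexin A2, was lower, with 0.84 and 0.68. In the matrix list 8 of 10 genes tested were lower (29.8% of all genes) and 2 higher in both libraries. Col1a1, the main chain of collagen I, was at 20278 and 16500 CPM in iWAT (0.81) and at 8293 and 4920 in iBAT (0.59). Dcn, the proteoglycan decorin, was higher, with 1.12 and 1.54. The 3 inflammatory genes tested, Ccl2, Ccl7 and Ptgs2, were higher in both libraries (37.2% of all genes were), 2 of them past 1.5-fold in iWAT (0.417% of all genes) and 1 in iBAT (1.19%). Lif, a cytokine of the IL-6 family below the minimum in iBAT, had ratios of 1.54 and 2.15.

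Over cells with 0, 1 to 2, and 3 to 5 UMIs of the thermogenic list, Fgf2 was 173, 194 and 209 CPM in iBAT, a ratio of 1.21 (1.16 to 1.26), against 1.03 (0.972 to 1.09) in iWAT. Among its genes in iBAT, cells with a UMI had 1.11 times the Fgf2 of cells without for Ebf2, a transcription factor of brown precursors, and 1.19 times for Dio2, which activates thyroid hormone, while for Prdm16 (1.01, 0.972 to 1.06) and Cox7a1 (1.05, 0.996 to 1.11) the interval held 1. Ucp1, the uncoupling protein of brown fat, was sparse and had a UMI in 0.0505% of iWAT and 0.297% of iBAT cells at fixed depth. In iBAT 0.326% of Fgf2-positive (0.244% to 0.426%) and 0.244% of Fgf2-zero cells (0.151% to 0.372%) had one. In iWAT the shares were 0.0609% (0.0245% to 0.125%) and 0% (0% to 0.157%), from few cells. These differences were not tested. Fgf2os, the antisense transcript, was rare, with a UMI in 3.51% of iWAT and 1.94% of iBAT cells. Cells with such a UMI had Fgf2 at 359 CPM against 281 without in iWAT, and 318 against 181 in iBAT.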

How the data were processed

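Libraries from iWAT and iBAT cultures were measured by BD Rhapsody whole transcriptome sequencing. The authors deposited raw UMI counts per gene and cell, made from reads aligned and annotated on a commercial cloud platform. The submitters' processing notes name mm39 and Seurat 5.0.0. Aligner version, annotation and strand handling are not given in the sources used here. From the counts, cells were filtered on genes and mitochondrial UMIs and gated on 4 genes, and each cell was thinned without replacement to 10000 UMIs with a fixed seed. Doublets were called with Scrublet in scanpy 1.11.5 at an expected rate of 8% and were kept, except in an alternative. Levels are summed CPM, with intervals from scipy 1.17.1. No model or test was fitted, with 1 library per depot. The arithmetic of the contrast across genes was checked on simulated independent Poisson counts with planted folds. These lack the spread between cells seen here, so the check says nothing on that spread. Named were Fgf2, list genes, the 15 highest and 15 lowest genes by the smaller log2 ratio of the libraries, the 10 most correlated, and genes overlapping Fgf2. Genes past 1.5-fold in a single library, and the promoter motif, were picked after their values were seen. The states, gate and lists were chosen with earlier results of these data known. Alternatives covered the gate, doublets, gene limit, depth, cycling cells, minimum level, fold and centring. Depth was at least 5790 UMIs per cell in iWAT and 10532 in iBAT.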

Additional observations from a re-analysis of the deposited data

Results flagged for a closer look

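For 2 lists the Fgf2 ratio of the highest to the lowest bin of list UMIs lay above 1 in iBAT and below 1 in iWAT with intervals that excluded 1 in both, and with 1 library per depot the difference was not tested. The ERK feedback list had 1.44 in iBAT (11 or more over 1 to 2 UMIs) and 0.963 in iWAT (11 or more over 3 to 5), the iWAT interval (0.910 to 1.02) holding 1. By quartile of cells its ratio was 1.35 in iBAT and 0.871 (0.847 to 0.896) in iWAT. Over the bins of adipogenic UMIs the Fgf2 ratio of highest to lowest bin was 1.69 in iBAT and 0.907 in iWAT. In iBAT the level was higher in each successive bin, whereas in iWAT it moved between 262 and 290 CPM, and it was 1.02 among iWAT cells without G2/M UMIs.

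Over the bins of the immediate early and heat shock list (Fos, Jun, Atf3, Nr4a1, heat shock genes and others), the ratio was 1.32 in iBAT (11 or more over 0 UMIs) and 0.895 in iWAT (11 or more over 1 to 2). The iWAT bin of 0 UMIs, with 179 cells, was too small for the ratio. In iWAT the bins went from 261 (0 UMIs) and 295 (1 to 2) to 313 (3 to 5) and down to 264 CPM (11 or more), so that the bins have no single direction. In iBAT they went from 153 (0 UMIs) and 171 (1 to 2) to 201. By quartile of cells the ratio was 0.820 (0.797 to 0.843) in iWAT and 1.15 (1.13 to 1.18) in iBAT. The list's sum went from 1513 to 1176 CPM over the Fgf2 bins in iWAT and from 555 to 600 in iBAT. The list's own level also differed, with 49.0% of iWAT and 11.2% of iBAT cells in the last bin, and median total UMIs of 17954 and 25734.5 there. Its part in either ratio was not tested.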

How the results depend on the processing

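No paired analysis was possible because each depot had 1 library and no result came from a test. Leaving out a replicate was not possible for the same reason. Of the planned values, 36 kept their direction and stayed within the counting interval, within 1.5 times for counts of genes, or equal to 3 significant digits for the variance over the mean, which has no interval, 26 moved and 1 reversed. The reversed value was the iWAT ratio by adipogenic UMIs, 1.02 in cells with 0 G2/M UMIs. It was 0.851 with 3 or more Pdgfra UMIs and 0.985 at a depth of 5000 UMIs. The iBAT adipogenic ratio was 1.62 without G2/M UMIs and 1.77 in the middle quartiles of total UMIs. The latter setting and that of 0 to 2 adipogenic UMIs were added after seeing the data, as was that of 0 to 2 skeletal muscle UMIs, and of the added values 15 stayed and 7 moved. The Dpp4 ratios stayed within their intervals in every setting that gave one, and for iBAT cells with 0 G2/M UMIs no bin with Dpp4 reached 200 cells. In the middle quartiles the Dpp4 ratio was 1.10 in iWAT and 1.44 in iBAT, the iWAT G2/M and adipogenic ratios were 0.863 and 0.903, and 5 genes were higher (5 of the 6) and 2 lower (1 of the 3). In cells with 0 to 2 skeletal muscle UMIs the iBAT ratios were 1.40 (Dpp4), 1.69 (adipogenic), 0.709 (G2/M) and 3.49 (committed list). With that setting 6 genes were higher and 4 lower in both libraries.

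The G2/M ratio with 3 or more Pdgfra UMIs was 0.893 in iWAT and 0.690 in iBAT, it was 0.820 in iWAT at 5000 UMIs and 0.667 in iBAT in the middle quartiles. The Fgf2 level with 3 or more Pdgfra UMIs was 314 in iWAT and 199.97 in iBAT, in the middle quartiles 280 and 189, and without doublets 192 in iBAT. The variance over the mean depends on depth by construction, with 1.81 in iWAT and 2.10 in iBAT at 5000 UMIs. It was 2.65 and 3.26 with 3 or more Pdgfra UMIs, 2.55 and 3.20 in the middle quartiles, and in iBAT 3.23 without doublets and 3.20 without the gene limit.

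Counts of genes depended most on the threshold and on the minimum level. A change of the minimum level or of the cells also changes how many genes are tested. Those numbers are not given here, so the counts under such settings cannot be read as shares. In the main setting the counts were 0.193% (higher) and 0.0963% (lower) of 3115 genes. Higher in both libraries were 0 genes at 2-fold, 19 with 6 or more Fgf2 UMIs, 12 in cells with 0 G2/M UMIs, 17 at a minimum of 10 CPM, 1 at 200 and 473 without a minimum, where low genes vary by counting. Lower in both were 0, 8, 3, 7, 0 and 389 in that order, and 1 with 0 to 2 adipogenic UMIs. All 6 higher genes were among the 19, the 17 and the 473, and 5 were among the 12. Of the 3 lower genes, all 3 were among the 8, the 7 and the 389, but only 1 among the 3 in cells with 0 G2/M UMIs and 2 among the 3 with centring or at 5000 UMIs. Of the 6, Cck was the 1 left at 200 CPM. Depth limits statements on Ucp1, Fgf1, Fgf21 and Fgf2os, each under 20 CPM.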

Other observations

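Hypoxia and glycolysis genes were mixed with respect to Fgf2 in the mesenchymal cells. Of 8 tested, 4 were higher and 4 lower in both libraries, with medians of -0.02 and 0.00 on the log2 scale, where 37.2% of all genes tested were higher and 29.8% lower in both. Vegfa, the angiogenic growth factor, was at 545 and 617 CPM in Fgf2-zero and Fgf2-high iWAT cells and at 233 and 314 in iBAT. Bnip3, a mitophagy receptor, was lower, with ratios of 0.89 and 0.82.

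Of 10 contractile and YAP target genes tested, 3 were higher and 6 lower in both, against 37.2% and 29.8% of all genes. Acta2, smooth muscle actin, was at 2842 and 2455 CPM in iWAT and 2236 and 1693 in iBAT. Thbs1, the matrix protein thrombospondin, went the other way with ratios of 1.21 and 1.07. The list's sum was higher with Fgf2, from 21881 to 23132 CPM over the Fgf2 bins in iWAT and from 12509 to 13152 in iBAT, and Fgf2 in the highest over the lowest quartile of cells by that sum was 1.14 (1.10 to 1.17) and 1.16 (1.13 to 1.19), so that no direction is drawn for the list. In iBAT the Fgf2 level was also lower in cells with more mural UMIs, with 194, 173, 148 and 139 CPM over bins of 0, 1 to 2, 3 to 5, and 6 to 10 UMIs (ratio 0.718, 0.655 to 0.785). In iWAT the ratio was 0.994 (0.953 to 1.04), there for 3 to 5 over 0 UMIs.

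Mesenchymal cells called doublets had Fgf2 at 257 CPM in iWAT (85 cells) and 155 in iBAT (790 cells).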
